A study of Mus musculus with 12 samples.

Results

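The positions described here were the 1682 autosomal CpGs whose methylation differed by 40 percentage points or more between the highest and the lowest of 12 mouse brains, with both DNA strands in accord in those 2 animals. They were taken from the 325167 autosomal CpGs at which each strand was covered by at least 10 reads in all 12 libraries, and made up 0.517% of them. The level of a CpG in an animal was the share of reads called methylated after the reads of both strands were summed. The rule kept a CpG when the levels of its strands differed by 20 points or less in the highest and in the lowest animal. The CpGs were thus chosen by the range of levels and by the strand difference in the animals at its ends, and these values are given only as a description. These positions are called variable CpGs below.

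Methylation was read by reduced representation bisulfite sequencing (RRBS), which enriches CpG-rich fragments, in brain tissue that held hippocampus together with cortex. All animals were 11 months old. The groups were 4 wild type (Wt) mice, labelled as 3 females and 1 male, and 8 Tg2576 (Tg) mice, labelled as 4 females and 4 males. Tg2576 mice carry a human APP transgene with the Swedish mutation of familial Alzheimer's disease, expressed from a prion protein promoter, and the APP gene of the mouse is left in place. Wt and Tg animals came from the same supplier and stock. Each library was 1 animal and 1 dissection, so that a level is an average over neurons, glia, vessel cells and both parental alleles, and a change in the mixture of cells cannot be told apart from a change within cells. RNA of these animals was not analysed here, so markers of the tissue were not checked.

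In mammals, methyl groups are placed on the cytosines of CpG dinucleotides, and the maintenance enzyme Dnmt1 copies the mark to the new strand after replication. Both strands of a CpG therefore usually carry the same state in a cell. CpG-rich promoters are usually free of methylation, gene bodies and spaces between genes are usually methylated, and imprinted control regions carry the mark on only the allele of a given parent. At metastable epialleles, many of them beside retrotransposons, the level is set early in development and differs between genetically alike mice.

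The libraries held 33619981 to 131446020 reads summed over covered cytosines. Each level of a variable CpG rested on 20 to 2129 reads, with a median of 72, against a median of 99 over all CpGs tested. The library labelled Wt male stood apart from its label, since it had 47.2% mean methylation on chromosome X, where Tg males had 17.1% to 30.5% and the libraries labelled female 38.7% to 49.7%. It also had 0.0696 chromosome Y sites per 1000 autosomal sites, where Tg males had 0.347 to 0.503 and the libraries labelled female 0.0584 to 0.151. The libraries of Wt female 1 and Tg female 1 stood apart at the variable CpGs themselves, as described after the sequences.

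Sequences of 6 regions and of 4 CpGs that stood alone are shown to place the variable CpGs among their neighbours. A region joined variable CpGs no more than 1000 bp apart, and it was named by the gene that holds it or, between genes, by the gene with the nearest start. Each line gives the reference sequence of the forward strand, 5′ to 3′, on the mm10 build, and capitals mark the variable CpGs. The windows were chr8:71602180-71602470 for Fam129c, chr12:20920992-20921209 for 3110053B16Rik, chr7:107209666-107209729 for Rbmxl2, chr2:29845446-29845717 for Mir219b, chr5:128697218-128697298 for 4930553I04Rik and chr17:56512123-56512255 for Znrf4. For the single CpGs they were chr6:108460559-108460619 for Itpr1, chr1:124545237-124545297 for Gm28928, chr13:47190170-47190230 for Rnf144b and chr11:51802921-51802981 for Sar1b.
Fam129c region: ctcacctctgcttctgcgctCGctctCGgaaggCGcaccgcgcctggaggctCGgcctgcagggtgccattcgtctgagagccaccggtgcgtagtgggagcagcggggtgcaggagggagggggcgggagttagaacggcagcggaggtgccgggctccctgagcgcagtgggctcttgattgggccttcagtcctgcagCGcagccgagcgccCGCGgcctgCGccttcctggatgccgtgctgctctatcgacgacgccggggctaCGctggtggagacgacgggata
3110053B16Rik region: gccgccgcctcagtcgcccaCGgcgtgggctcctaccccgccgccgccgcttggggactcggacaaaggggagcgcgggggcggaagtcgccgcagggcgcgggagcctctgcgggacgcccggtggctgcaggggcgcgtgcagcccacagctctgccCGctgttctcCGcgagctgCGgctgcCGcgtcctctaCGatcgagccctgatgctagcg
Rbmxl2 region: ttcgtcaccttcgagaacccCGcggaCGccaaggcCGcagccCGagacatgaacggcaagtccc
Mir219b region: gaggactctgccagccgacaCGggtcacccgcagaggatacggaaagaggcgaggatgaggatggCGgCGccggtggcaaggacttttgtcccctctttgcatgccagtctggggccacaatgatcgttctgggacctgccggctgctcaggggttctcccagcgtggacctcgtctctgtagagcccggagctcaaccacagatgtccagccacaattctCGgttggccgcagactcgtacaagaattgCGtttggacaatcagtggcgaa
4930553I04Rik region: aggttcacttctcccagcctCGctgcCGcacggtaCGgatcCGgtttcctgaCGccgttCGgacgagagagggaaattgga
Znrf4 region: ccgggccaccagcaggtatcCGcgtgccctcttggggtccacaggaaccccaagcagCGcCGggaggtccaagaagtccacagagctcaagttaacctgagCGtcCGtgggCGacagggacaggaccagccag
Itpr1: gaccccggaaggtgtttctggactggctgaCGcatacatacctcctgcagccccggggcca
Gm28928: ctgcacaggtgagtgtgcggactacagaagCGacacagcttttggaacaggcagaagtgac
Rnf144b: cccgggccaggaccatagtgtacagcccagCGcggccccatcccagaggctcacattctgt
Sar1b: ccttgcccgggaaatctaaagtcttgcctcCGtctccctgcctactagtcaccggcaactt
In the Fam129c window, 24 of the 30 CpGs were tested and 9 were variable, with a run of lower-case CpGs between the first 4 and the last 5. The window beside 4930553I04Rik was denser in variable positions, with 6 among its 9 CpGs, and the Znrf4 window held 6 among 8. The windows of the single CpGs held 2 or 3 CpGs each.

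The variable CpGs had intermediate levels. The median range was 47.1 points, with quartiles of 43.1 and 53.6, against a median range of 4.40 points over all CpGs tested. A range of at least 50 points was seen at 638, of at least 60 points at 205 and of at least 80 points at 22, and at 6 CpGs the range was 100 points. The median of the mean level over animals was 35.8%, with quartiles of 25.4% and 48.7%, where all CpGs tested had a median of 0.758%. In all, 1483 had a mean level between 20% and 80%, 175 lay under 20% and 24 over 80%. Because a wide range needs room on either side, a second set is given for comparison, the 6034 other CpGs with a mean level of 20% to 80%. These had a median range of 34.6 points.

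At the limits of the rule, the 5 variable CpGs nearest the range limit had 40 points, and the 5 nearest CpGs outside it had 39.92 to 39.98 points. A further 1714 CpGs had the range but a larger strand difference. Wilson intervals at 95% cover counting error only, since RRBS reads without molecular identifiers are not independent molecules.

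The range was not always made by a single animal. The widest gap between neighbouring animals in the order of levels set the highest animal apart at 677 variable CpGs, set the lowest apart at 346 and lay between other animals at 659. With the highest and the lowest animal left out, the other 10 had a median range of 31.2 points. These values come from the levels that the rule used and include counting error, so they are a description. An animal without any methylated read was present at 241 variable CpGs, and an animal with every read methylated at 55, with 6 CpGs in both counts.

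The strands, which were read from different molecules, were compared over the 12 libraries. The median Pearson's r between strand levels was 0.41 at the variable CpGs and 0.066 at the other intermediate CpGs, and this includes the animals in which the rule had set a strand limit. Over the 10 animals between the extremes, the median r was 0.019 against -0.19 at the other intermediate CpGs. The strand limit was not applied in these 10 animals, and leaving out the extremes of the sum lowers r in either set. CpGs that had the range but failed the strand limit were not kept out of the other intermediate CpGs. The gap in r between the sets can thus be partly set by the rule, over 10 animals as over 12. The median strand difference in those 10 animals was 13.8 points in either set, with a median of 34 reads per strand at the variable CpGs.

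The share of variable CpGs fell with the reads behind them. Where the library and strand with the fewest reads had 10 to 12, 0.988% of CpGs were variable, at 13 to 15 reads it was 0.496%, at 16 to 19 reads 0.223%, and at 20 reads or more 0.0819%. Better covered CpGs also less often had an intermediate level. Among variable and other intermediate CpGs together, the variable CpGs made up 23.6%, 21.7%, 17.8% and 11.96% in the same order. With at least 20 reads on each strand in all libraries, 55 CpGs in 45 regions were left. At 26.0% of variable CpGs the highest or the lowest animal was the library with the fewest reads there, against 26.2% of the other intermediate CpGs. The animals at the ends of the range had a median of 63 reads at variable CpGs, and the other 10 a median of 73.

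Wt female 1 and Tg female 1 had the highest levels. Over all variable CpGs the mean level was 47.3% in Wt female 1 and 47.8% in Tg female 1, and 33.0% to 39.3% in the other 10 libraries. Tg female 1 was the highest animal at 428 and Wt female 1 at 307 of the 1662 variable CpGs with a single highest animal, and each of the other 10 was highest at 48 to 163. The pair held both highest places at 324 variable CpGs (19.3%), against 7.99% of the other intermediate CpGs. Their genotypes differ, and both are labelled female. At the other intermediate CpGs their mean levels were also the highest, 42.2% and 40.8%, where the other 10 libraries had 33.3% to 38.4%. What sets the pair apart was not tested. Without both libraries the rule kept 1068 CpGs, of which 1005 were among the 1682.

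**Figure D1:**
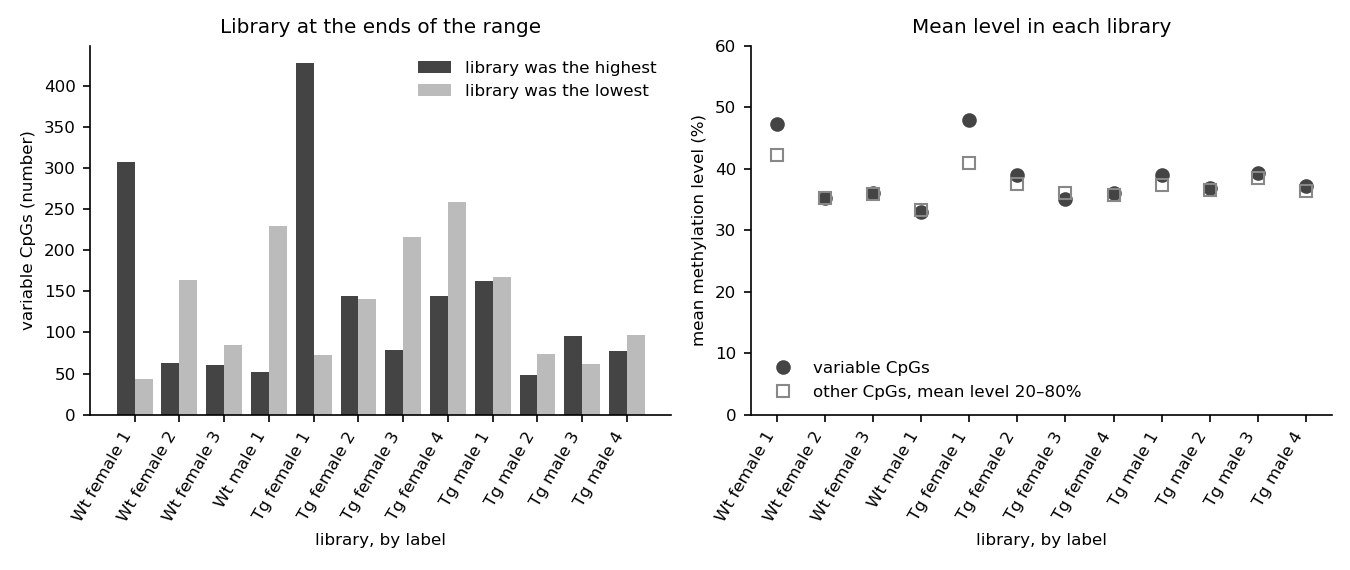
Left, number of variable CpGs (vertical axis) at which each of the 12 libraries (horizontal axis, by label) was the only highest (dark bars) or the only lowest (light bars) animal. Right, mean methylation level in percent of each library over the variable CpGs (filled circles) and over the 6034 other CpGs of intermediate level (open squares). Tg female 1 and Wt female 1 were highest at 428 and 307 CpGs and had mean levels of 47.8% and 47.3%, above the other 10 libraries.

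The lowest places were spread more evenly. Among the 1612 variable CpGs with a single lowest animal, Tg female 4 was lowest at 259, the library labelled Wt male at 230 and Tg female 3 at 216, and Wt female 1 was lowest at 43. Tg female 4 had the fewest reads, with a median of 34 per variable CpG, while the library labelled Wt male had a median of 84. By genotype, the mean level over variable CpGs was 37.9% ± 6.40 (SD, n = 4) for Wt and 38.7% ± 3.96 (SD, n = 8) for Tg, and the groups overlapped.

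Variable CpGs were mostly found away from promoters. Promoters reached 1000 bp up and down from a transcription start and held 327 of them (19.4%), coding exons outside promoters held 363 (21.6%), other exons 83 (4.93%), introns 536 (31.9%) and the space between genes 373 (22.2%). Of all CpGs tested, 85.5% lay in promoters. The other intermediate CpGs were placed much like the variable CpGs, with 24.6% in promoters, 22.7% in coding exons, 29.0% in introns and 19.3% between genes. Repeats masked in the reference held 2.08% of variable CpGs, 2.42% of other intermediate CpGs and 1.99% of all CpGs. The 300 bp around a variable CpG had a median GC content of 56.6% and a median of 11 CpGs, against 58.1% and 12 for the other intermediate CpGs and 70.1% and 32 for all CpGs tested. Thus the places and base composition that went with wide variation were close to those of intermediate level in general.

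**Figure D2:**
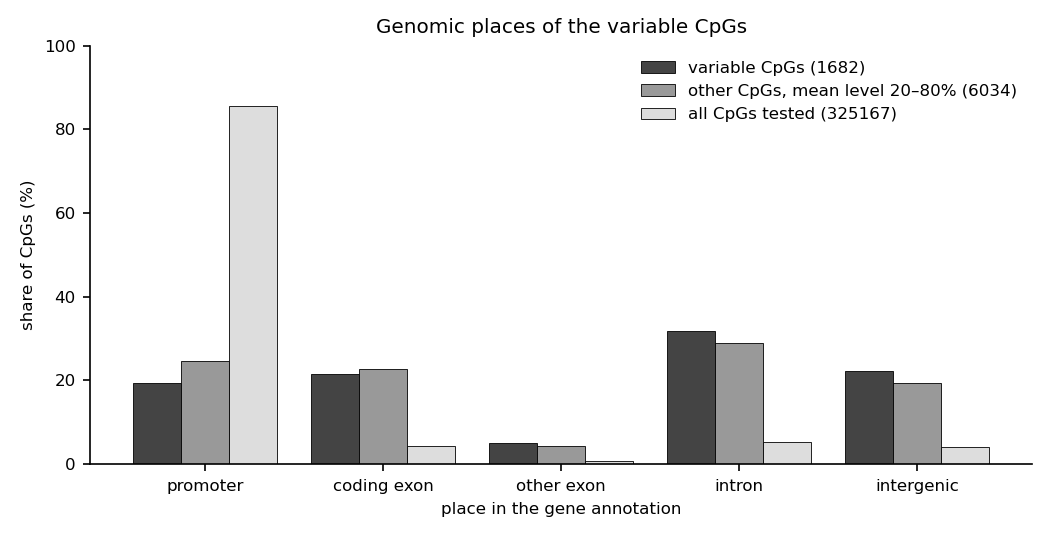
Share in percent (vertical axis) of the variable CpGs, the other CpGs of intermediate level and all CpGs tested (dark, middle and light bars) in each place of the gene annotation (horizontal axis). Promoters held 85.5% of all CpGs tested but 19.4% of the variable and 24.6% of the other intermediate CpGs.

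The variable CpGs fell into 1232 regions. Of these, 947 held a single variable CpG, 285 held 2 or more, with 735 variable CpGs in all, and 16 held 5 or more. Nearby variable CpGs moved alike across the animals. The median r of level profiles over the 12 libraries was 0.81 for 269 pairs 1 to 20 bp apart, 0.69 for 331 pairs 21 to 100 bp apart and 0.66 for 97 pairs over 100 and up to 300 bp apart, the last from only 24 regions. It was 0.27 for 112 pairs up to 1000 bp apart and 0.14 for 84 pairs up to 10000 bp apart. Pairs on different chromosomes had a median r of 0.094 over 12 libraries and of 0.026 without Wt female 1 and Tg female 1. CpGs within a read length share reads, so that these pairs are not independent, and the values are a description.

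**Figure D3:**
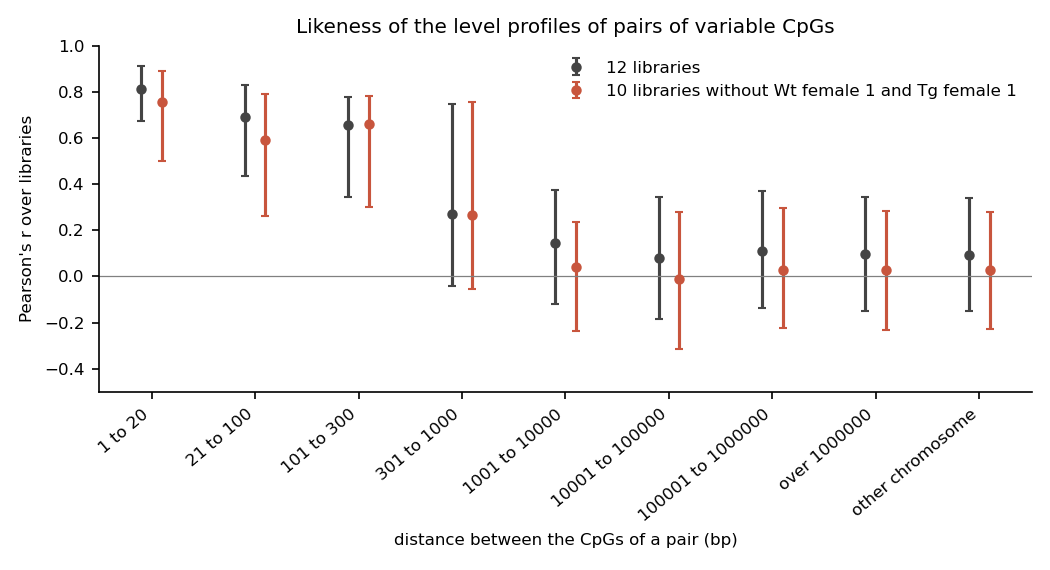
Pearson's r of the level profiles of pairs of variable CpGs (vertical axis) by the distance between them in bp (horizontal axis), over 12 libraries (dark) and over 10 libraries without Wt female 1 and Tg female 1 (red). Points are medians and bars run from the lower to the upper quartile of pairs. The median fell from 0.81 at 1 to 20 bp to 0.14 beyond 1000 and up to 10000 bp over 12 libraries.

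Neighbours that the rule did not keep were compared as well. Within 50 bp, 1115 variable CpGs had a tested CpG that was not variable by the rule. Its median range was 33.9 points, and the median r with the variable CpG was 0.60. For the nearest CpG of any kind within 50 bp, the median r was 0.69 for the variable CpGs and 0.53 for the other intermediate CpGs. The median range of that nearest CpG was 39.2 points beside the variable CpGs and 32.9 points beside the other intermediate CpGs. The 33.9 points of the neighbours not kept leave out variable CpGs by the rule, which lowers the value. The nearest CpG of any kind could itself be variable, and 618 variable CpGs had another within 50 bp. The r and range of the nearest CpG beside variable CpGs are thus partly set by the rule.

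The 12 regions with the most variable CpGs were described one by one. For each, the level is that of the reads summed over its variable CpGs, and Wt and Tg animals overlapped in all 12.

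The region with the most members, 13 variable CpGs among 37 tested, lay at chr8:71602200-71602583 in a coding exon of Fam129c (ENSMUSG00000043243.15), 4552 bp from its start. Fam129c belongs to the Niban gene family. Its level was 8.18%, 27.4% and 52.8% in Wt females 1 to 3 and 23.4% in the library labelled Wt male. In Tg animals it was 5.01% at the lowest, 24.5% at the median and 50% at the highest, in Tg male 3. The levels fell into a low set near 5% to 8% with Wt female 1, Tg female 2, Tg female 3 and Tg male 1, a high pair with Wt female 3 and Tg male 3, and a middle set with the other 6. Both genotypes were found in each set. The 24 other CpGs of the region followed the variable ones with r = 0.99 over the 12 libraries, at levels from 3.35% to 28.6%.

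The second region, with 10 variable CpGs, lay at chr12:20920724-20921189 in introns and exons shared by 3110053B16Rik (ENSMUSG00000085642.8) and Zfp125, a zinc finger gene, within 538 bp of a start of 3110053B16Rik. Its level was 2.21%, 37.0% and 17.8% in Wt females 1 to 3 and 39.6% in the library labelled Wt male. Tg animals had 8.44% at the lowest, 22.2% at the median and 45.1% at the highest. Here Wt female 1, a library with a high mean level, was the lowest animal, and 6 animals lay between 30.7% and 45.1% while the other 6 lay at or under 17.8%. The median r between its variable CpGs was 0.82.

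A pair of regions were at imprinted genes. Gnas (ENSMUSG00000027523.19), whose locus makes the stimulatory G protein alpha subunit and other transcripts from parental alleles, held 8 variable CpGs over chr2:174327859-174328536 in untranslated sequence. The summed level was 24.6% to 25.8% in all 4 Wt animals, and 18.7%, 26.5% and 50% at the lowest, median and highest Tg animal. The variable CpGs formed 2 clusters, 3 over chr2:174327859-174327949 and 5 over chr2:174328506-174328535. Within the second cluster the level profiles were alike (median r 0.96 over 10 pairs), with 63.4% in Tg female 2, 46.9% in Tg male 1 and 4.44% in Tg female 3. Pairs between the clusters had a median r of -0.60, and the first cluster was at 6.15% in Tg male 1 and 34.6% in Tg female 3. Wt animals ran from 18.96% to 39.8% in the first cluster and from 19.4% to 30.98% in the second. The narrow range of the summed level in Wt animals thus did not hold within either cluster. Plagl1 (ENSMUSG00000019817.18), which makes a zinc finger transcription factor and is normally expressed from the paternal allele, held 6 variable CpGs over chr10:13090824-13090881 within 45 bp of its start. Their level was 15.9%, 48.8% and 17.1% in Wt females 1 to 3 and 23.6% in the library labelled Wt male, and 0%, 20.2% and 31.1% at the lowest, median and highest Tg animal. The 6 CpGs moved as a unit, with a median r of 0.98. Their range was set by Wt female 2 at the top and Tg female 2 at the bottom.

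The Mir219b region, 7 variable CpGs over chr2:29845466-29846283 between genes, lay within 181 bp of the start of Mir219b (ENSMUSG00000105010.1) at its first CpG and within 555 bp of Mir219a-2 at its last. The miR-219 family is known for its part in oligodendrocyte differentiation. Wt animals had 30.2% to 37.9%, and Tg animals 27.1% at the lowest, 32.1% at the median and 58.3% at the highest. Tg female 1 and Tg male 1, at 58.3% and 51.1%, were apart from the other 10, which lay at or under 37.9%. The region at 4930553I04Rik (ENSMUSG00000105483.1), 6 variable CpGs over chr5:128697238-128697278, lay 38752 bp or more from the nearest start. It followed the pair of high libraries, with 48.6% in Wt female 1 and 45.5% in Tg female 1 against 5.79% to 23.8% in the other 10.

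A pair of genes on chromosome 18 held further regions. Pdgfrb (ENSMUSG00000024620.11), the receptor for platelet-derived growth factor that marks pericytes, had 6 variable CpGs over chr18:61065800-61065889 in a coding exon. Wt animals had 32.5% to 43.8%, and Tg animals 16.8% at the lowest, 33.6% at the median and 72.3% at the highest. Tg female 1 and Tg female 2, at 63.6% and 72.3%, were above all the others. Mbd2 (ENSMUSG00000024513.16), a protein that binds methylated CpGs, had 5 over chr18:70582481-70582537 in untranslated sequence 14147 bp or more from its start. Its levels ran from 17.0% to 51.2% in Wt and from 18.99% to 64.8% in Tg animals.

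The other 4 regions were at Rbmxl2, Ssbp4, 3110070M22Rik and Znrf4. Rbmxl2 (ENSMUSG00000073894.1), which makes an RNA-binding protein of germ cells, had 8 variable CpGs over chr7:107209286-107210332 around its start, with 27.7% to 51.3% in Wt and 28.5% to 38.9% in Tg animals. The median r between them was 0.21. Ssbp4 (ENSMUSG00000070003.7) had 6 over chr8:70597692-70598013, with 42.3% to 58.2% in Wt and 19.1% to 53.3% in Tg animals, and Tg female 2 and Tg female 3 at 22.8% and 19.1% were the lowest. The region of 3110070M22Rik (ENSMUSG00000074635.2) and Tmem267 had 7 over chr13:119488352-119488444, with 43.4% to 68.9% in Wt and 39.7% to 64.5% in Tg animals at 82 to 514 reads per CpG. Znrf4 (ENSMUSG00000044526.3), a RING-type ubiquitin ligase gene, had 6 over chr17:56512143-56512235 in its coding exon. Its levels ran from 53.0% to 78.7% in Wt and from 55.5% to 74.8% in Tg animals, with a median r of 0.25.

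**Figure D4:**
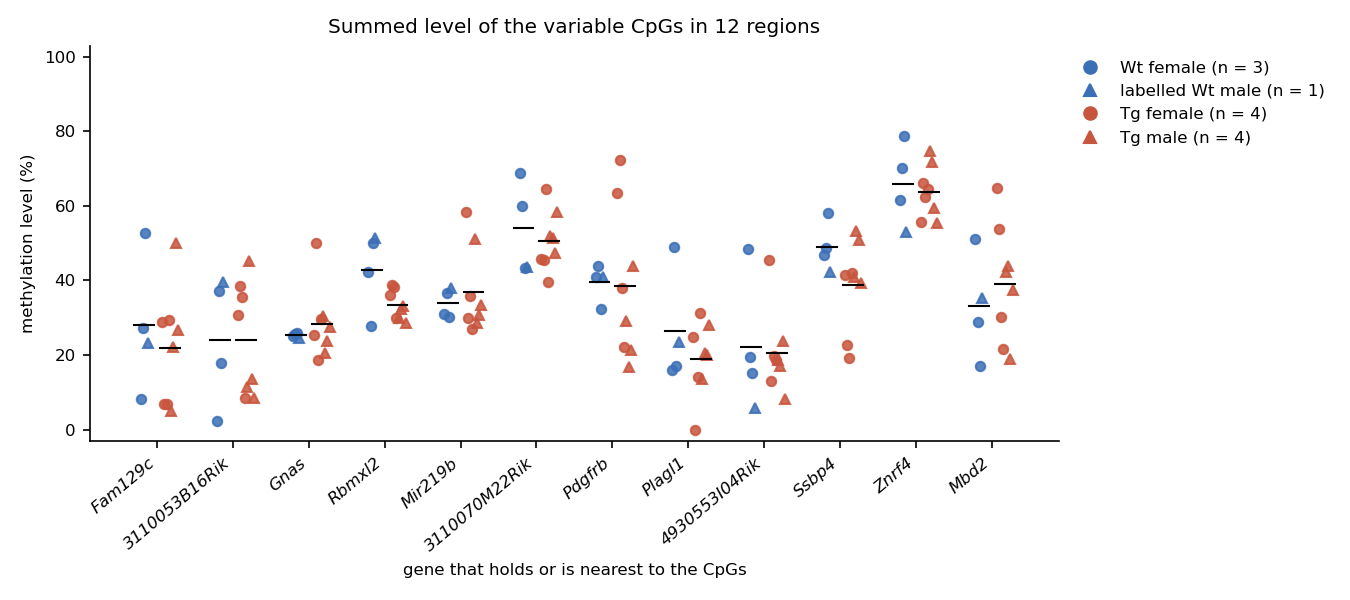
Methylation level in percent (vertical axis) of the reads summed over the variable CpGs of each of 12 regions (horizontal axis, by gene). Each point is an animal, blue for Wt and red for Tg, circles for the label female and triangles for the label male, and black lines are means. The Wt and Tg points overlap in all 12 regions, and in the Fam129c region each genotype spans from under 10% to 50% or more.

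The 8 variable CpGs without another within 1000 bp and with the widest ranges had ranges of 92 to 100 points, and at 6 of them the lowest animal had no methylated read and the highest no unmethylated read. Their neighbours mostly did not share this. At Gm28928, Rnf144b, Sar1b, Igsf5 and Dthd1 a tested CpG lay 2 to 23 bp away, with a mean level of 78.9% to 96.7% and a range of 15 to 50 points, and its r with the single CpG ran from -0.46 to 0.82. At Itpr1, Myo1e and Disp2 no other CpG within 100 bp was tested.

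The CpG in an intron of Itpr1 (ENSMUSG00000030102.11, the receptor that releases calcium from the endoplasmic reticulum), at chr6:108460589, had 47.2%, 3.85% and 43.3% in Wt females 1 to 3 and 100% in the library labelled Wt male. Tg animals had 0% at the lowest, 54.3% at the median and 100% at the highest. All 40 reads of the library labelled Wt male were methylated, and none of 51 in Tg female 2, with a lower Wilson limit of 91.2% and an upper limit of 7.005%. In both animals the strands had the same level, and the strands followed each other over the 12 libraries with r = 0.91. In 9 of the 12 animals the level was within 10 points of 0%, 50% or 100%.

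The CpG in an intron of Gm28928 (ENSMUSG00000100851.1), at chr1:124545267, had 100%, 61.5% and 58.6% in Wt females 1 to 3 and 0% in the library labelled Wt male. In Tg animals the lowest was 0%, the median 59% and the highest 96.2%. Females all had 50% or more, and 4 of the 5 libraries labelled male had 3.28% or less, Tg male 2 being the exception at 68%. This division by sex label was noticed after the values were seen, and the library labelled Wt male carried X and Y values against its label.

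At Rnf144b (ENSMUSG00000038068.15), a ubiquitin ligase gene, the CpG at chr13:47190200 in an intron had 0%, 30.8% and 0% in Wt females 1 to 3 and 91.3% in the library labelled Wt male. Tg animals had 0% at the lowest, 41.5% at the median and 100% at the highest. The CpG at chr11:51802951, which lay 39264 bp from the start of Sar1b (ENSMUSG00000020386.5, a small GTPase of vesicle transport), had 0%, 57.1% and 100% in Wt females 1 to 3 and no methylated read in the fourth Wt library. Tg animals had 0%, 47.2% and 81.8% at the lowest, median and highest. In both places Wt animals alone spanned over 90 points.

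At Myo1e (ENSMUSG00000032220.10), a class I myosin gene, the CpG at chr9:70378292 in a coding exon had 28.1%, 0% and 53.1% in Wt females 1 to 3 and 0% in the library labelled Wt male. Tg animals had 35.7%, 75.3% and 100% at the lowest, median and highest. At Disp2 (ENSMUSG00000040035.14), a gene related to the Hedgehog release protein Dispatched, the CpG at chr2:118793904 in untranslated sequence had 52.8%, 76.9% and 95.9% in Wt females 1 to 3 and 28.3% in the library labelled Wt male, and 0%, 17.3% and 33.3% at the lowest, median and highest Tg animal. These 2 CpGs had the widest differences between genotypes of the 8, 53.8 points higher and 50.6 points lower in Tg, with overlapping ranges. By the overdispersion model explained with the genotype test, the adjusted p-values over all CpGs were 0.37 at Myo1e and 0.34 at Disp2.

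The CpG at chr16:96426227, in an intron of Igsf5 (ENSMUSG00000000159.16) and a coding exon of Itgb2l, an integrin gene, had 52.2%, 70.6% and 45.8% in Wt females 1 to 3 and 96.4% in the library labelled Wt male. Tg animals had 0%, 56.6% and 100% at the lowest, median and highest. The CpG at chr5:62977504, 163681 bp from the start of Dthd1 (ENSMUSG00000090326.1), had 40%, 50.9% and 36% in Wt females 1 to 3 and 94.9% in the library labelled Wt male, and 8%, 57.0% and 100% in Tg animals. At 7 of the 8 single CpGs, 8 or 9 of 12 animals were within 10 points of 0%, 50% or 100%, and at Disp2 5 were. Over all variable CpGs, 116 (6.90%) had 8 or more animals so placed, against 7.28% of the other intermediate CpGs, and none had all 12. Bisulfite reads of a CpG lost to a DNA sequence change and of an unmethylated CpG cannot be told apart in these counts.

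**Figure D5:**
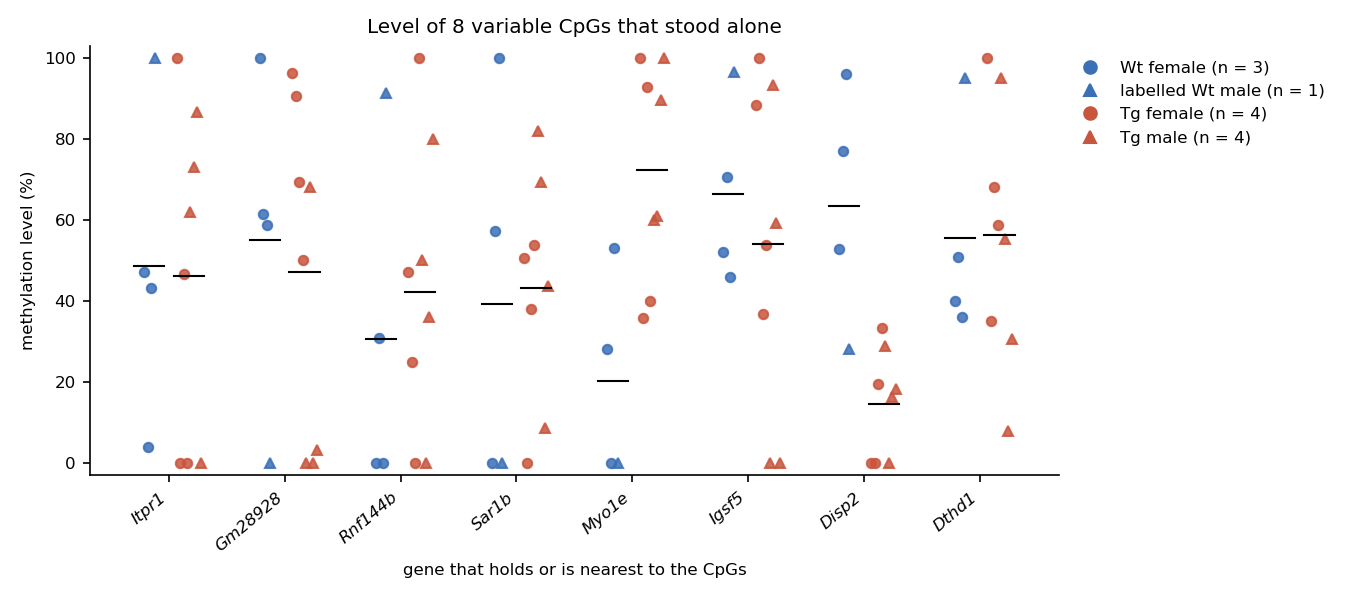
Methylation level in percent (vertical axis) of the 8 variable CpGs that stood alone and had the widest ranges (horizontal axis, by gene). Each point is an animal, blue for Wt and red for Tg, circles for the label female and triangles for the label male, and black lines are means. The Wt and Tg points overlap at all 8, and the means lie furthest apart at Myo1e and Disp2.

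Gene lists gave the variable CpGs by function. Imprinted genes, those expressed from the allele of a given parent, held 30 variable CpGs among 753 tested (3.98%) in 14 genes, against 0.517% over all CpGs tested. Beside these 30 they held 163 other intermediate CpGs, where all CpGs tested held 1682 variable and 6034 other intermediate CpGs. Intermediate levels are usual at imprinted control regions, so that the 3.98% cannot be read apart from level. Besides Gnas, the member with the widest range was at Kcnq1 (ENSMUSG00000009545.14), a potassium channel gene of an imprinted domain, at chr7:143325179. It had 38.0%, 33.3% and 36.0% in Wt females 1 to 3 and 75.8% in the library labelled Wt male, and 14.3% to 54.5% in Tg animals.

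Genes known for metastable methylation near intracisternal A particles (a family of mouse retrotransposons) held 2 variable CpGs among 391 tested (0.512%, against 0.517% of all), both at Sfi1 (ENSMUSG00000023764.18), which encodes a centrosome protein. They were the deepest covered of those named, far above the median of 72 reads at variable CpGs. What made the depth so high was not tested. At chr11:3193480, 17 bp from the Sfi1 start and in an intron of Drg1, the level was 71.8%, 62.4% and 51.1% in Wt females 1 to 3 and 76.5% in the library labelled Wt male. Tg animals ran from 41.2% in Tg female 3 to 82.3% in Tg male 4, at 360 to 1187 reads. At chr11:3193385 the same animals were lowest and highest, with 21.5% and 62.4% at 424 to 2129 reads. The strands followed each other with r = 0.91 and 0.94, and the nearest CpGs with r = 0.97 and 0.97. At Sfi1, then, the order of the animals was shared by strands and neighbours.

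Markers of brain cell types held 2 variable CpGs, where 0.517% of all CpGs tested were variable. Of 313 CpGs tested at neuron genes 1 (0.319%) was variable, at Rbfox3 (ENSMUSG00000025576.17, the neuronal splicing factor NeuN), with 52.3% in Tg female 1 and 6.49% in Tg male 4 at the ends. Of 122 at microglia genes 1 (0.820%) was variable, at Csf1r (ENSMUSG00000024621.16, the receptor microglia need), with 58.5% in Tg female 1 and 5.80% in the lowest animal, the library labelled Wt male. None of 158 CpGs at oligodendrocyte genes and none of 218 at astrocyte genes was variable. Protocadherin genes held 5 variable of 80 CpGs, olfactory and vomeronasal receptor genes 3 of 85, histocompatibility genes 2 of 250 and zinc finger (Zfp) genes 40 of 6044. The widest of these were at Zfp467 (71.1 points), Zfp444 (64.1 points), Zfp853 (61.6 points), Olfr1474 (60.7 points), Pcdhb22 (56.3 points), Pcdhb17 (50.1 points), H2-DMa (50 points), Olfr1419 (42.4 points) and H2-Q6 (41.5 points).

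Genotype was then compared at every CpG, to ask whether the variation followed the transgene. The test was a logistic regression of methylated reads on genotype and sex, with a dispersion per CpG to allow for spread between like animals beyond read counting, and the Benjamini-Hochberg adjustment ran over all 325167 CpGs. To count as a differentially methylated site (DMS), a CpG had to differ by at least 10 points with an adjusted p-value under 0.1. No variable CpG was a DMS by this overdispersion model, and none of all CpGs tested (0%), with a smallest adjusted p-value of 0.34. Unadjusted p-values under 0.05 were found at 60 variable CpGs (3.57%), 39 higher (2.32%) and 21 lower (1.25%) in Tg, against 12% of all CpGs tested, 5.49% higher and 6.54% lower, and 4.77% of the other intermediate CpGs. The 12% cannot be read as a genotype signal, nor the lower share at variable CpGs as a lack of it. By the same model the share of all CpGs was 12.6% for sex, and 6.16% for genotype in females only. Most CpGs tested had low levels, at which the model was not simulated. With a difference of at least 10 points as well, 53 variable CpGs (3.15%) were left, against 3.30% of the other intermediate CpGs and 0.109% of all. The limma model on logit levels also called none, with unadjusted p-values under 0.05 at 76 variable CpGs (4.52%), against 5.43% of all. Without Wt female 1 the overdispersion model had them at 156 variable CpGs (9.27%) against 10.3% of all, and without Tg female 3 at 91 (5.41%) against 11.6%.

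A binomial model, which counts the reads of an animal as independent draws, gave 281 DMSs among the variable CpGs (16.7%), 187 hypermethylated and 94 hypomethylated in Tg animals, against 0.318% of all CpGs tested (0.209% and 0.109%) and 9.74% of the other intermediate CpGs. Without Wt female 1 it gave 534 among variable CpGs (31.7%) against 0.630% of all, and without the library labelled Wt male 266 (15.8%) against 0.331%. Where every strand had at least 20 reads it gave 8 of 55 (14.5%) against 0.0566%. The rule chose CpGs whose animals differ, and the median dispersion, where 1 is counting error alone, was 6.50 at the variable CpGs, 3.82 at the other intermediate CpGs and 1.86 over all. The difference between genotypes was under 10 points at most variable CpGs, with 298 at or above 10 points and 19 at or above 20. The median was 1.72 points higher in Tg, against 0.032 points over all CpGs tested. Sex was tested by the labels, with the library labelled Wt male coded male here and as the covariate, although its X and Y values were like those of the females. No variable CpG was called by the overdispersion model (0% of all), with a smallest adjusted p-value of 0.33. Its unadjusted p-value was under 0.05 at 79 variable CpGs (4.70%), against 5.15% of the other intermediate CpGs and 12.6% of all.

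At 4 variable CpGs (0.238%) the levels of the Wt group lay wholly above or below those of the Tg group. The share was much the same, 0.249%, at the other intermediate CpGs, and it was 0.119% of all CpGs tested. Of the 4 variable CpGs, 2 were higher and 2 lower in Tg. A pair of them also had the smallest p-values. At Cilp2 (ENSMUSG00000044006.8), a gene of a cartilage matrix protein, the CpG at chr8:69883019 in a coding exon had 41.0%, 29.9% and 42.7% in Wt females 1 to 3 and 47.4% in the library labelled Wt male, and 5.13%, 17.99% and 25% at the lowest, median and highest Tg animal. It was 24.1 points lower in Tg by summed reads, with an unadjusted p-value of 0.000136 and an adjusted p-value of 0.34 by the overdispersion model. At Wnt9b (ENSMUSG00000018486.2), a Wnt ligand gene, the CpG at chr11:103733769 in a coding exon had 28%, 51.2% and 59.6% in Wt females 1 to 3 and 61.7% in the library labelled Wt male, and 70%, 81.9% and 94.4% in Tg animals. It was 30.3 points higher in Tg, with an adjusted p-value of 0.34. Every Wt animal was above every Tg animal at Cilp2 and below at Wnt9b, yet neither passed the test over all CpGs.

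Another CpG without overlap, named for that after the values were seen, lay near Uts2r (ENSMUSG00000039321.1), the urotensin receptor gene. At chr11:121156925, 3346 bp from the Uts2r start, Wt animals had 3.95% to 20.7% and Tg animals 24.7% to 45.5%, with an adjusted p-value of 0.37 by the overdispersion model. The next smallest p-values were at Npas3 (ENSMUSG00000021010.8), a neuronal transcription factor gene, and at C1ql2 (ENSMUSG00000036907.9), a gene of a secreted synaptic protein. At chr12:53835151 in an intron of Npas3 Wt animals had 13.7% ± 9.64 (SD, n = 4) and Tg animals 31.5% ± 9.50 (SD, n = 8). At chr1:120341969 in an intron of C1ql2 they had 10.4% ± 7.33 (SD, n = 4) and 25.3% ± 9.40 (SD, n = 8). The groups overlapped at both, and their adjusted p-values were 0.34 and 0.34.

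The 55 variable CpGs with at least 20 reads on each strand in every library had a median range of 44.3 points, and Wt female 1 and Tg female 1 were the highest animal at 11 each. The widest were chosen after their values were seen. At 2810429I04Rik, chr13:3478259 in an exon 16 bp from the start, Wt female 1 had 67.1% and the other animals 0% to 37.6%. At Rad50, a gene of DNA break repair, chr11:53707090 in untranslated sequence 229 bp from the start had 55.6% in Tg female 4 and 0% to 31.1% in the others, and chr11:53707108 had 55.6% in the same animal and 1.79% to 44.8% in the others. Near Ssmem1, the library labelled Wt male had 12.8% at chr6:30526917 and 12.5% at chr6:30526900, and the other animals were at 30% to 69.2% and at 31.0% to 66.7%. The neighbouring CpGs at Rad50 had the same highest animal, and those near Ssmem1 the same highest and lowest.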

How the data were processed

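RRBS read counts of 12 brains were used. Per the labels and the study's methods, the authors had classic RRBS libraries sequenced in paired-end mode, aligned to mm10 with Bismark and read into methylKit, and they deposited counts per cytosine (coverage, methylated and converted reads), strands apart and animals not pooled. Versions were not given in the sources used here. The smallest coverage in the files was 10 reads. Replicate numbers were given by accession order and serve as names. Nothing states that animals were littermates.

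Strands of a CpG were joined and summed, and the rule was applied with inclusive limits. Annotation was GENCODE vM21 basic, and sequence the matching reference assembly. Genotype was tested on all 325167 CpGs by logistic regression with sex as covariate, either with the binomial likelihood-ratio test or with an F test on a dispersion never below 1, adjusted by Benjamini-Hochberg. The p-values of the F test and of limma rest on the spread between these animals. Those of the binomial test count reads as independent draws and do not measure that spread. The variable CpGs and the gene lists were chosen with earlier results of these data known. Named were the 12 regions with the most variable CpGs, the 8 widest that stood alone, up to 3 per gene list and, since no variable CpG was called, the 4 with the smallest p-value. Of the 4 variable CpGs at which Wt and Tg levels were apart, 1 is not reported here. Sequence windows on chromosome 18 or over untranslated sequence were not printed. Python 3.11.15, numpy 2.4.6, scipy 1.17.1 and limma 3.58.1 in R 4.3.3 were used. The models were first run on simulated reads at intermediate levels, and low levels, such as most CpGs tested had, were not simulated. Intervals are Wilson intervals at 95% and cover counting error only. Alternatives varied the rule, the read minimum, the covariate, the model and the animals.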

Additional observations from a re-analysis of the deposited data

Results flagged for a closer look

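By Dixon's ratio within Wt, Tg, Tg female and Tg male animals, 7 of 92 sets of values had an animal apart from the rest of its group. Chance flags about 1 in 20 such sets, but these values were chosen for wide ranges, so the number of flags supports nothing. Tg female 1 had a mean level over the variable CpGs of 47.8%, where the other 7 Tg animals had 35.1% to 39.3%. It was the highest animal at 428 variable CpGs, where the other Tg animals were at 48 to 163, and Wt female 1 was at 307, where the other Wt animals were at 52 to 63. In the 4930553I04Rik region Tg female 1 was also apart, at 45.5% with the other Tg animals at 8.27% to 23.8%. In the 3110053B16Rik region Tg male 2 had 45.1%, where the other Tg males had 8.44% to 13.6%. At the Gm28928 CpG the same animal had 68% and the other Tg males 0% to 3.28%. In the Gnas region Tg female 2 had 50%, where the other Tg animals had 18.7% to 30.6%.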

How the results depend on the processing

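The number of variable CpGs depended on the rule. It was 3938 with a range of 30 points and 638 with 50, 633 with a strand limit of 10 points and 3396 with none, 55 with 20 reads on each strand, and 1388 to 1627 with each animal left out in turn. Without Wt female 1 and Tg female 1, chosen after seeing the data, it was 1068, of which 1005 were among the 1682. Only 224 (13.3%) stayed variable whichever animal was left out. Promoters of 2000 bp held 28.3% of variable CpGs. The overdispersion model gave 0 calls for genotype and for sex in every setting run. The difference at Cilp2, Wnt9b, Npas3 and C1ql2 kept its direction in females, with animal means and without each animal. That supports nothing, since these CpGs were chosen for small p-values in the same data. At Cilp2 and Wnt9b the groups did not overlap, so that the direction could not change in these settings. The covariate does not enter the difference. Binomial calls over all CpGs were 2328 in females (544 among variable CpGs), 38 with 20 reads (8), 1044 to 2050 without each animal (259 to 534), and 1695 without both high libraries. Without Wt female 1 they were 2050 and 534. No paired analysis was made, because nothing states that a Wt animal was paired with a Tg animal. Depth limits single levels, with a median of 34 reads per strand.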
